A study of Mus musculus with 2 samples.

Results

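The Groucho/TLE corepressors were followed as 5 mouse genes, Tle1, Tle2, Tle3, Tle4 and Tle6, of the 19057 genes with a named probe on the arrays. They were chosen by gene symbol, with earlier results of these data known, and every probe annotated to them was taken, 16 in all. The samples were leukaemic stem cells from mouse bone marrow, of strain background C57BL/6J, with an age given as 9 weeks. The PirBTM sample carried MLL-AF9 and the PirBTM variation of the inhibitory receptor gene Pirb, and the wild-type sample carried MLL-AF9 alone. MLL-AF9, present in both, is a fusion of Kmt2a with Mllt3 that drives acute myeloid leukaemia. The sources used here do not give what PirBTM changes in the receptor, how the fusion was introduced or whether animals were pooled. Each group had 1 Illumina array, so every difference below is between 2 samples, without replicates and without a test.

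TLE proteins, the mammalian Groucho family, do not bind DNA themselves. Transcription factors of the HES, RUNX, TCF/LEF and PAX families recruit them through short peptide motifs, and the TLE proteins bring histone deacetylases and keep the target gene silent. In Wnt signalling they sit on TCF/LEF factors until beta-catenin takes over, and in Notch signalling they act with the HES repressors. In human acute myeloid leukaemia, TLE1 and TLE4 lie in a stretch of chromosome arm 9q that is lost in some patients.

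Among the 5 genes, Tle6 stood out as 11.5-fold lower on the PirBTM array, or 6.20-fold lower without background correction. By their brightest probes and the main processing, Tle1, Tle3 and Tle4 differed by less than 1.5-fold, and Tle2 lay at the edge of detection. The log2 ratio of Tle3 reached 0.64 with the mean of probes. Of the members above background (detection p-value below 0.01) on both arrays, 4 in number, 1 was at least 2-fold lower in PirBTM, where 9.86% of the 7858 genes above background on both arrays were. No member was at least 2-fold higher, where 9.77% of those genes were. Since these differences were known when the genes were chosen, the counts are descriptions. Of the 16 probes, 9 were above background on both arrays and 5 on neither.

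Log2 ratios are PirBTM minus wild type, from background-corrected and quantile-normalized intensities. A single probe's log2 ratio had a measuring SD of 0.30. This SD came from the disagreement of 2944 pairs of probes for the same gene, both above background on both arrays. It was 0.33 among the 981 genes with a dim second probe (mean log2 intensity of 7.43 or less). It leaves out any variation between animals, sorts or RNA preparations. Over the genes detected on both arrays, the median log2 ratio was -0.22 and depended on the scaling, being 0.03 after cyclic loess and -0.10 after median scaling.

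Of the 7 promoter windows of the family, 3 are shown: that of Tle6, the gene with the large difference, and those of Tle4 and Tle3, the other windows that held a motif marked here. They are RefSeq windows of assembly GRCm38.p6, 250 bases before to 50 bases after a transcript start, printed 5′ to 3′ on the gene's strand. Capitals mark the E-box CACGTG, the letters read by MYC-MAX and USF factors, and TGACAG, the letters read by MEIS factors. The Tle6 window is chr10:81600851-81601150 on the minus strand, the Tle4 window chr19:14598134-14598433 on the minus strand and the Tle3 window chr9:61372116-61372415 on the plus strand.
Tle6: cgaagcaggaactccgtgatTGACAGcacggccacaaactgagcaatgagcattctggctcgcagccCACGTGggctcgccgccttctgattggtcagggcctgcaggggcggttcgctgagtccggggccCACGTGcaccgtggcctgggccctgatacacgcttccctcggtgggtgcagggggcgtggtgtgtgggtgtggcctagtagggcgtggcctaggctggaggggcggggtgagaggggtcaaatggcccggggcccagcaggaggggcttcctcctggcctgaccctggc
Tle4: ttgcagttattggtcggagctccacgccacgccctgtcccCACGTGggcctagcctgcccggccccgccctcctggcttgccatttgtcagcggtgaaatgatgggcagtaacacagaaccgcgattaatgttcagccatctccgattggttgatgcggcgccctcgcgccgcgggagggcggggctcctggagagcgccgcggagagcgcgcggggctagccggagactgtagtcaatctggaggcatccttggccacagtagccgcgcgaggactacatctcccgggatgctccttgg
Tle3: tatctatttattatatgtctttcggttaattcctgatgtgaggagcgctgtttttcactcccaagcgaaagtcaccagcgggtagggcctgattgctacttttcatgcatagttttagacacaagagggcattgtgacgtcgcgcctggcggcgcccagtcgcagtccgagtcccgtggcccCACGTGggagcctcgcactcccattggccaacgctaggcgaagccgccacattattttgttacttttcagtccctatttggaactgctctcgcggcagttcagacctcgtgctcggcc

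The Tle6 window held CACGTG 2 times, at positions 68 and 132 counted from 1 at its 5′ end, and TGACAG at position 21. The Tle4 and Tle3 windows held CACGTG 1 time each, at positions 41 and 183. Searched on both strands, CACGTG was in 7.15% of the 32851 promoter windows and TGACAG in 19.2%. CACGTG occurred at least 2 times in 0.594% of windows, a count made after the Tle6 window had been read. The second windows of Tle6 and Tle4 and the windows of Tle1 and Tle2 held neither motif. The RUNX letters TGTGGT (16.8% of windows) and the TCF/LEF letters CTTTGA (16% of windows) were in none of the 7 windows of the family. The CCAAT box, common over all windows (37.4%), was in the 3 windows printed above. These matches are letters in a window; no binding was measured here.

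Tle6, the most divergent member, was the 1 with a large difference. In mouse neural progenitors its product can oppose Tle1, and in the egg it is a subunit of the subcortical maternal complex. Its only probe had a scanner signal of 282 on the PirBTM array, against 1454 on the wild-type array. Both signals were above background, which averaged 147 in PirBTM and 139 in wild type. The PirBTM signal was low, at the level of the brightest Tle3 probe (284 in PirBTM), which limits the precision of the fold. After normalization the log2 intensity was 6.97 in PirBTM and 10.50 in wild type, a log2 ratio of -3.52. Of the 7858 genes above background on both arrays, 10 had a lower ratio. Genes not above background in PirBTM are outside this rank. Some of them fell further, such as Igf2bp3 and Hoxa5, with log2 ratios of -6.52 or lower and -5.07 or lower. The ratio rests on a single probe, and no second Tle6 probe was there to read it against. The next counts cover only the 2944 genes with 2 probes that each passed the detection limit in PirBTM and in wild type alike. Among these, 5 had a brightest probe at least 8-fold lower in PirBTM, and the second probe was at least 2-fold lower in all 5. Of the 246 among them whose brightest probe was at least 2-fold lower, the second probe was lower in 240 and at least 2-fold lower in 165. Genes whose second probe was undetected on an array were left out, so these counts cannot show disagreement of that kind. The fold of Tle6 depended on the background correction: it was 6.20-fold without it and 6.39-fold in the authors' deposited series table, where the values were 232 in PirBTM and 1481 in wild type.

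**Figure D1:**
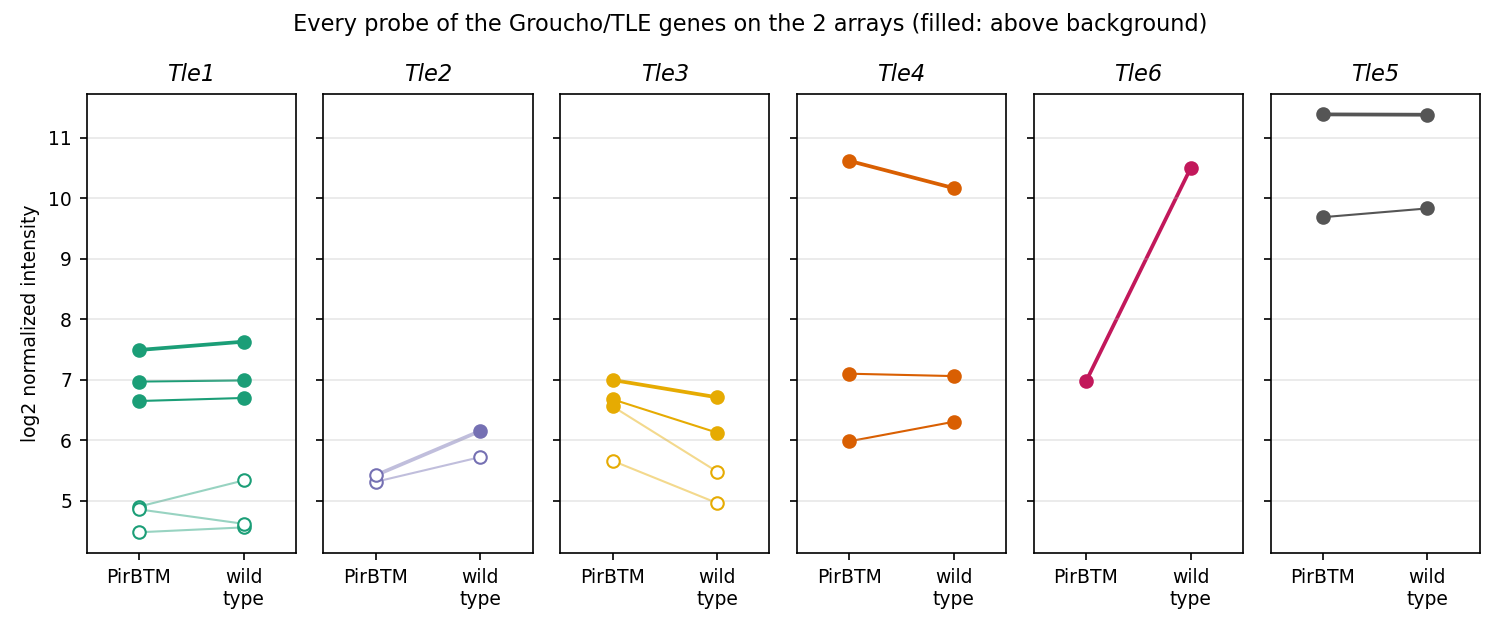
Log2 normalized intensity of every probe of Tle1, Tle2, Tle3, Tle4, Tle6 and the short relative Tle5, with the PirBTM array on the left and the wild-type array on the right of each panel. Each line joins 1 probe across the arrays, thick for the brightest probe of a gene, and filled points are above background. The Tle6 probe lies at 6.97 in PirBTM and 10.50 in wild type, whereas the other lines are much flatter.

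Tle4 works with RUNX and PAX5 factors in blood cells. Its brightest probe had signals of 1836 in PirBTM and 1176 in wild type, a log2 ratio of 0.45, or 1.37-fold higher in PirBTM after normalization. Its other probes did not show the same difference. Log2 ratios were 0.04 for the second probe (295 in PirBTM, 235 in wild type) and -0.32 for the third (207 in PirBTM, 189 in wild type). The mean of the 3 probes gave 0.056. The 3 probes thus spread on both sides of 0, and no direction can be given for Tle4 from them.

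Tle3, a corepressor that in fat cells also works with the nuclear receptor PPAR-gamma, had a higher measured value in PirBTM by every probe. Signals of its brightest probe were 284 in PirBTM and 211 in wild type, a log2 ratio of 0.29. The second had 254 in PirBTM and 182 in wild type, with a log2 ratio of 0.55. The third was above background on the PirBTM array alone (244, against 162 in wild type). Its log2 ratio was 1.08, or at least 1.52-fold higher by its bound. The fourth, 190 in PirBTM and 148 in wild type, was above background on neither and had a log2 ratio of 0.70. The ratios of all 4 were above 0. The gene's log2 ratio stayed above 0 in each of the 7 alternatives that gave one, between 0.13 and 0.64. All 4 probes lay low on the scale, at log2 intensities of 6.99 or less in PirBTM and 6.71 or less in wild type, close to the lowest values above background (5.67 in PirBTM and 5.95 in wild type).

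Tle1, which partners HES1 in neural cells, was nearly level. Its brightest probe had signals of 344 in PirBTM and 291 in wild type, with a log2 ratio of -0.14 after normalization. Its other probes detected on both arrays gave -0.02 and -0.05, and the remaining 3 of its 6 probes were above background on neither array. The sign depended on the scaling, with 0.16 after cyclic loess and 0.14 after median scaling. Relative to the median of all genes, Tle1 lay between 0.07 and 0.24 above it under every setting.

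Tle2 was barely detected. Its brighter probe had 180 in PirBTM, with a detection p-value of 0.030, and 183 in wild type, with a detection p-value of 0.0032. It was therefore above background on the wild-type array alone. In the authors' deposited series table the same probe had 161 in PirBTM and 185 in wild type. The other probe, with 175 in PirBTM and 168 in wild type, was above background on neither array. With signals this near the background, the level of Tle2 cannot be set apart between the samples.

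Tle5 (Aes) is the short relative that has the oligomerization domain but lacks the WD40 propeller, and it can oppose the full-length proteins. It was bright and level: 2973 in PirBTM and 2629 in wild type for 1 probe, 1048 in PirBTM and 945 in wild type for the other. The log2 ratios were 0.01 and -0.15. The first changed sign with median scaling and with the mean of probes, always within the measuring error of 0.

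**Figure D2:**
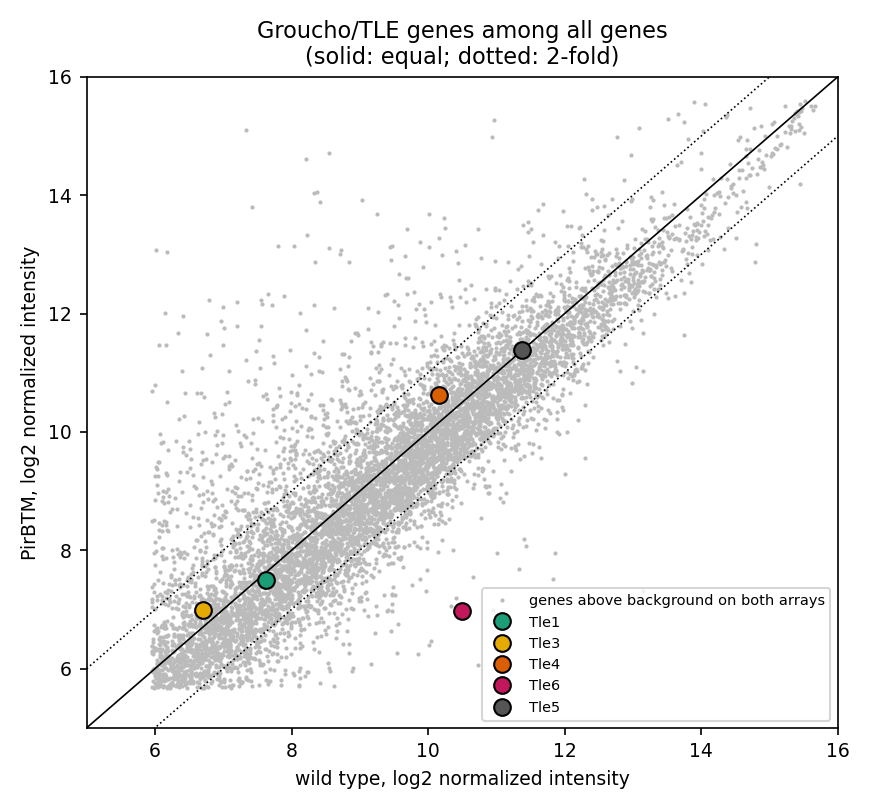
Log2 normalized intensity on the PirBTM array (vertical) against the wild-type array (horizontal) for 7858 genes above background on both arrays, each by its brightest probe. The solid line marks equal values and the dotted lines 2-fold differences. Tle6 lies far below the lower dotted line, and Tle1, Tle3, Tle4 and Tle5 lie between the dotted lines.

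Between members, the log2 ratio of Tle6 was 3.39 lower than that of Tle1, 3.81 lower than that of Tle3 and 3.98 lower than that of Tle4. These gaps are 8.03 to 9.43 times the measuring SD of such a difference (0.42). The multiples are descriptions, since the difference of Tle6 was known when the genes were chosen. Among Tle1, Tle3, Tle4 and Tle5, by brightest probe, no pair of ratios differed by more than 1.40 times that SD. With the mean of probes the gap was wider between Tle3 (0.64) and both Tle1 (-0.07) and Tle5 (-0.07). In raw signal, 13 of the 16 member probes were brighter on the PirBTM array. That array was brighter in general: its median probe was 1.07-fold brighter, and its background averaged 147, against 139 in wild type. The share of all probes brighter in PirBTM was not counted, so the 13 of 16 is no result about these genes. The exceptions among the 16 were the Tle6 probe, the brighter Tle2 probe and a Tle1 probe not above background.

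**Figure D3:**
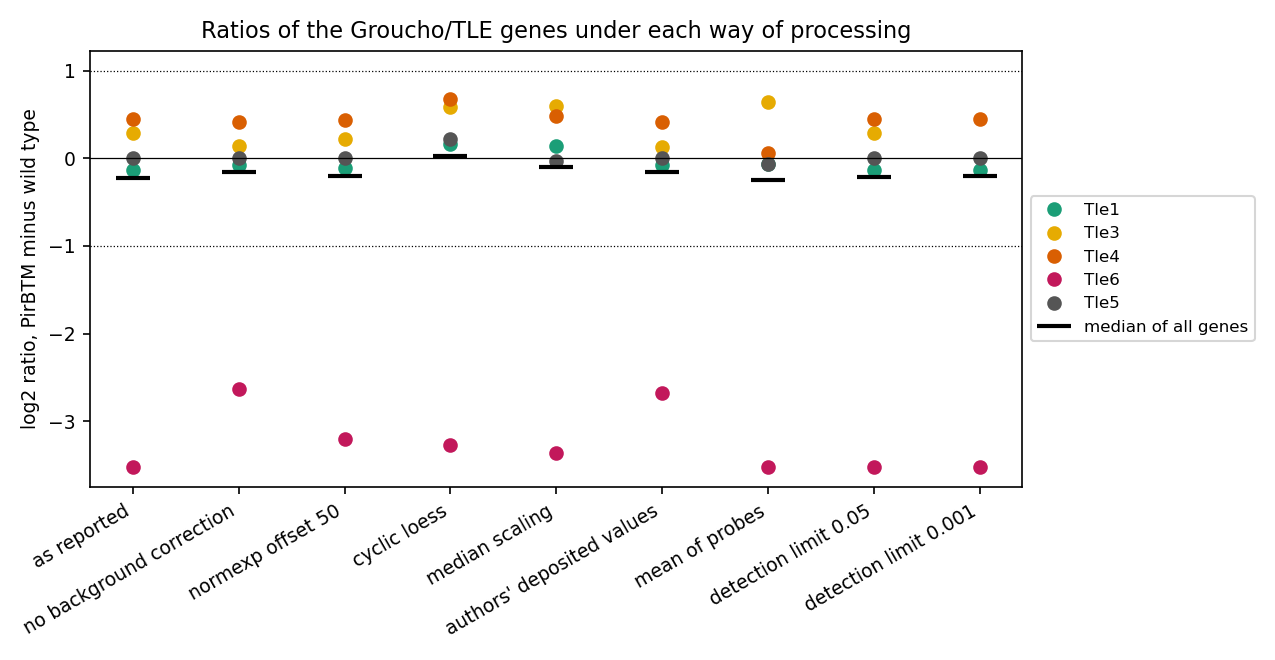
Log2 ratio, PirBTM minus wild type, of Tle1, Tle3, Tle4, Tle6 and Tle5 as reported and under 8 alternative ways of processing, with the median of all genes as a black bar and dotted lines at 2-fold. Tle6 lies between -3.52 and -2.63 throughout, and the others stay between the dotted lines.

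Tle6 and Tle2 are neighbours on chromosome 10, with Tle5 next to them and no other protein-coding gene between the 3 in the RefSeq table. Of 10 further neighbours with a named probe, 5 were above background on an array. Their median log2 ratio was -0.12, but 0.13 after cyclic loess, 0.07 after median scaling and 0.03 at a detection limit of 0.001. Zfp873, a zinc finger gene, was at least 2.37-fold lower in PirBTM (log2 intensity 5.02 in PirBTM, not above background, and 6.91 in wild type), and no neighbour was at least 2-fold higher. Of all genes above background on an array, 9.67% were at least 2-fold lower and 12.8% higher. Sirt6, a histone deacylase gene and the first neighbour on the Tle6 side, had a log2 ratio of -0.56. Gna11, S1pr4 and Gna15, on the Tle5 side, had -0.12, 0.17 and 0.35. Zfp873 passed 2-fold only in some settings, and 0 neighbours did so without background correction, with the offset of 50, after median scaling, in the authors' deposited values or at a detection limit of 0.001.

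**Figure D4:**
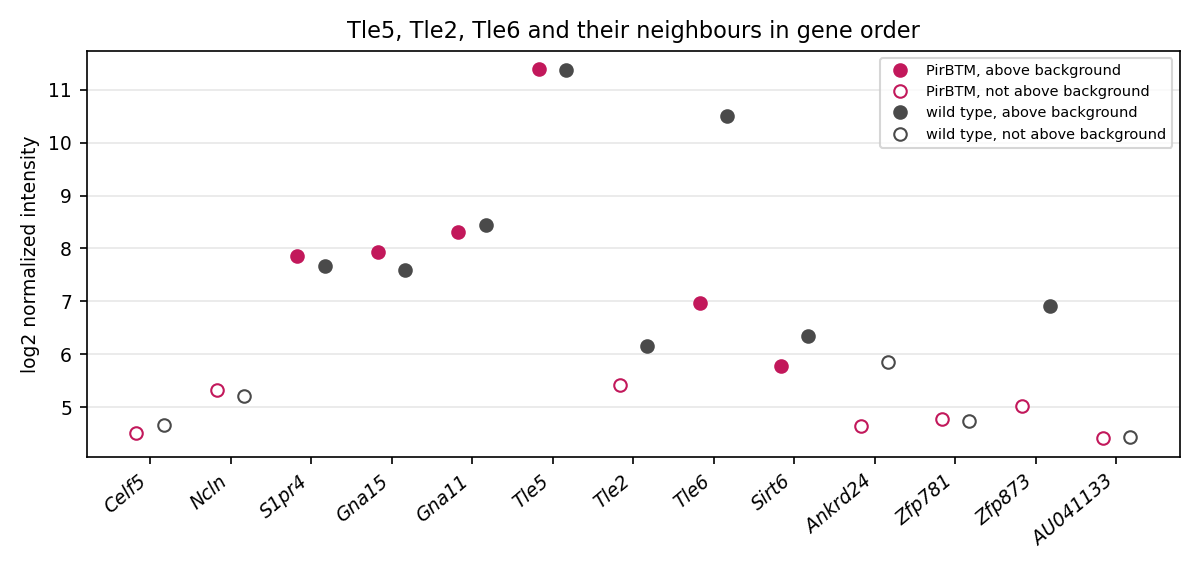
Log2 normalized intensity of Tle5, Tle2, Tle6 and 10 neighbours in chromosome order, with PirBTM left of wild type for each gene and filled points for values above background. Levels of different genes come from different probes and cannot be compared. Tle6 shows the widest gap between the arrays among these genes.

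The genes with the pair of intensities nearest to that of Tle6 over the 2 arrays were Mreg, a melanosome and lysosome transport gene, Mag, a myelin glycoprotein gene, and Hoxa7. Their distances were 0.18, 0.23 and 0.46 in log2 units. Mreg had 7.05 in PirBTM and 10.34 in wild type, Mag 7.19 in PirBTM and 10.41 in wild type, and Hoxa7 6.99 in PirBTM and 10.96 in wild type. With 2 arrays, such likeness says only that the values were close.

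The factors that recruit TLE proteins moved in different directions. Of 17 listed, 15 had a named probe and 7 were above background on an array. Of these, 2 were at least 2-fold higher in PirBTM and 1 was at least 2-fold lower, beside 12.8% and 9.67% of the 9432 genes above background on at least 1 array. Tcf7l2, a TCF factor of the Wnt pathway, was at least 22.6-fold higher by its brightest probe (log2 intensity 10.45 in PirBTM and 5.41, not above background, in wild type). Of its other 5 probes, all dim, 1 was above background, in PirBTM alone. Hes1, the Notch target that recruits TLE proteins, was at least 5.93-fold higher (8.52 in PirBTM and 5.09, not above background, in wild type). Hes6, a HES relative that counters HES1, was 3.35-fold lower (9.79 in PirBTM and 11.54 in wild type), and its 3 probes gave log2 ratios of -1.74, -1.64 and -1.45. Hhex, a homeobox repressor of blood progenitors, had a log2 ratio of -0.70. Runx1 and its partner Cbfb, named after their values were seen because they are the main RUNX pair of these cells, had log2 ratios of 0.90 and 0.03. Hes5, Hey1, Hey2, Heyl, Runx3, Lef1, Pax5 and Prdm1 were above background on neither array. The median over the 7 was 0.90, against -0.15 for all genes above background on an array.

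By brightest probe, none of the deacetylase and corepressor subunits measured, through which corepressors such as the TLE proteins act, passed 2-fold. Of 15 above background (16 with a named probe of 20 listed), 0 were at least 2-fold higher and 0 lower, beside 12.8% and 9.67% of all genes. The median log2 ratio was -0.21, against -0.15 for all genes above background on an array. Its sign depended on the scaling, with 0.07 after cyclic loess and 0.04 after median scaling. Mbd3 and Rbbp4, of the NuRD complex, had -0.92 and -0.80, or 1.89-fold and 1.74-fold lower in PirBTM. The other Rbbp4 probes detected on both arrays gave -0.57 and -1.31, the latter past 2-fold. Tbl1x, of the NCoR complex, had 0.55. The probes of Chd4, the NuRD remodeller, disagreed: the brightest gave 0.37, and the others detected on both arrays gave 0.26 and -0.18.

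In the Notch list, 12 of 18 genes were above background on an array. Of these, 2 were at least 2-fold higher in PirBTM: Maml2, a coactivator of Notch, by at least 7.42-fold and Lfng, a glycosyltransferase that tunes Notch receptors, by at least 2.63-fold. Each was above background on the PirBTM array alone, and the second Maml2 probe, above background on neither array, had a log2 ratio of -0.48. Nrarp, a Notch target that feeds back on the pathway, was 2.58-fold lower, with log2 intensities of 5.98 in PirBTM and 7.34 in wild type. Notch4 had a log2 ratio of -0.03. These counts, 2 higher and 1 lower of 12, lie near the shares of all genes (12.8% and 9.67%). The median was 0.57, or 0.23 with members dark on 1 array at their bound.

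In the Wnt list, 14 of 24 genes were above background, 4 of them at least 2-fold higher and 0 lower in PirBTM, beside 12.8% higher and 9.67% lower of all genes above background on an array. The median was 0.35. Ccnd1, cyclin D1, a target of the pathway, was 6.24-fold higher (9.94 in PirBTM and 7.30 in wild type), and the log2 ratios of its 2 probes detected on both arrays were 2.64 and 2.62. Bcl9l, a beta-catenin coactivator, was 4.35-fold higher (8.97 in PirBTM and 6.84 in wild type). The coreceptors Lrp6 and Lrp5 were lowest, with log2 ratios of -0.51 and -0.44. Axin2, a standard target of the pathway, was above background on neither array.

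Genes of the MLL-AF9 programme were listed because their ratios were known to lie near that of Tle6, so their direction is no independent result. By ratio or bound, all 11 with a named probe were at least 2-fold lower in PirBTM, with a median of -3.97. Of all genes above background on an array, 9.67% were at least 2-fold lower. Igf2bp3, which encodes a fetal RNA-binding protein, was at least 91.6-fold lower and the homeobox gene Hoxa5 at least 33.5-fold. Mef2c, a transcription factor of myeloid progenitors, was 3.84-fold lower and Hoxa10 at least 3.34-fold, while a second, dark Hoxa10 probe had a log2 ratio of 0.14. The log2 ratio of Tle6 (-3.52) lay within the range of this list.

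**Figure D5:**
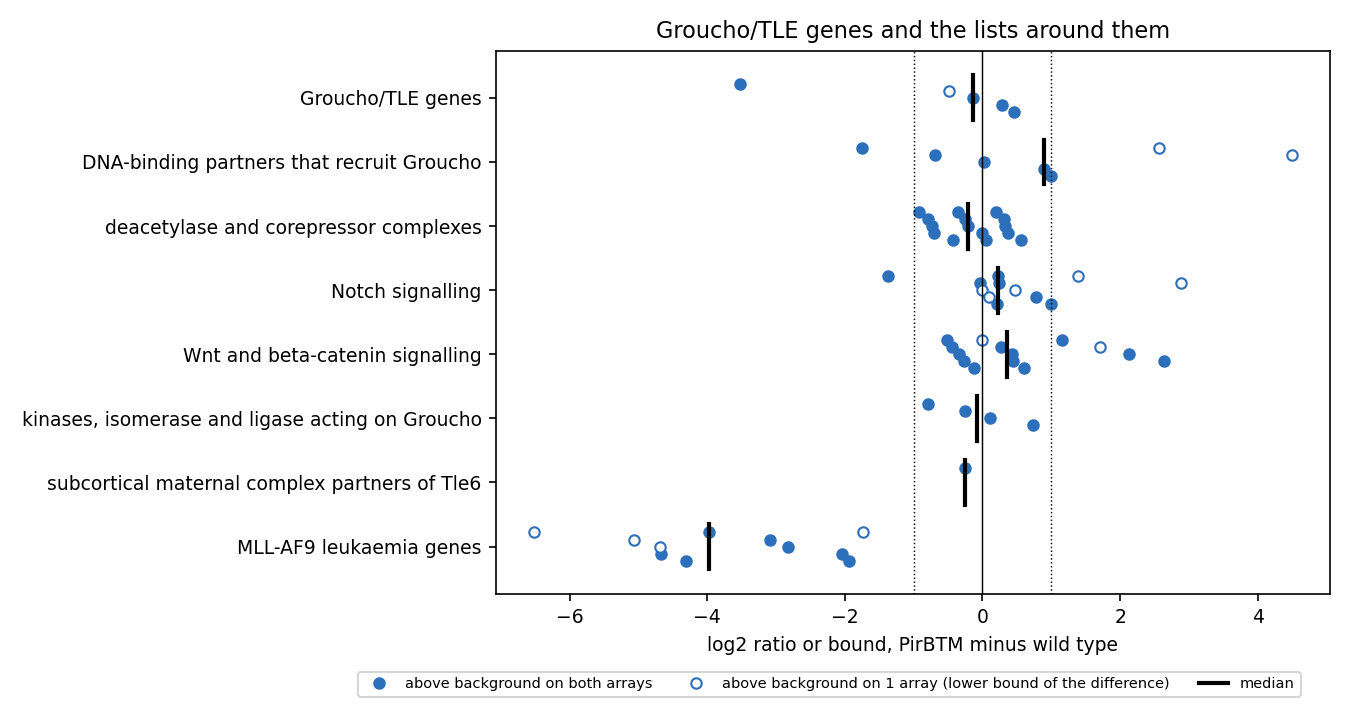
Log2 ratio, PirBTM minus wild type, of the TLE genes and of each gene of 7 lists above background on an array, with open points at their bound where 1 array was dark, black bars at the median and dotted lines at 2-fold. The MLL-AF9 genes all lie below the lower 2-fold line, where Tle6 is the only TLE gene.

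Markers of other marrow cells were higher on the PirBTM array, and their part in the values above was not tested. Over 7 lists (erythroid, B cell, T and NK cell, macrophage, neutrophil, megakaryocyte, and stroma and endothelium), 68 markers had a named probe. Of these, 57 were above background in PirBTM and 30 in wild type. At least 2-fold higher in PirBTM were 45 and lower 0, beside 12.8% and 9.67% of the 9432 genes above background on at least 1 array. Summed normalized intensity ran from 1.88-fold (neutrophil) to 56.1-fold (erythroid) higher in PirBTM. The lists summed to between 2019.6 and 258700.2 in PirBTM, against between 341.5 and 137799.7 in wild type. Pax5, Cd4, Cd8a, Ncr1, Klrb1c, Cd5l, Mmp8, Col1a2, Col3a1, Kdr and Lepr were above background on neither array. Of 9 markers for leukaemic stem and progenitor cells, 8 were above background on an array. Among them 1 was at least 2-fold higher in PirBTM (Csf3r, 3.08-fold) and 3 at least 2-fold lower, beside the same 12.8% and 9.67%. The 3 were Cd34, and Hoxa9 and Meis1 of the MLL-AF9 list. Itgam and Cd93 had log2 ratios of 0.86 and 0.18. Kit had log2 intensities of 11.01 in PirBTM and 11.72 in wild type, and Cd34 had 5.33 in PirBTM, not above background, and 7.66 in wild type. In bulk RNA, fewer cells that express a gene and less RNA of it per cell cannot be told apart.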

How the data were processed

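Per the labels' protocols, Trizol-extracted RNA was cleaned on columns with DNase I, and biotin-labelled cRNA was made for Illumina arrays. The authors deposited a scanner table with an average intensity and a detection p-value, per the file headers, for each of 45281 probes on each array. These intensities were linear and not normalized between arrays (medians of 161 for PirBTM and 148 for wild type). The deposited series table holds quantile-normalized linear intensities of the same arrays (medians of 148.3 for PirBTM and 148.2 for wild type; uncentred, with the same probe ranks). The sources used here do not give the scanner software or its settings.

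Background was corrected with limma 3.58.1 (R 4.3.3; normexp with offset 16, its negative controls inferred from detection p-values), followed by quantile normalization and log2. The procedure was tested on simulated arrays, in which a small set of probes of moderate signal was changed by known amounts. Far more genes differed between the real arrays, so that run does not check the normalization under their conditions. The platform annotation named 1 gene for 34885 probes, of which 34807 were matched by gene identifier to RefSeq symbols, with 0 symbols changed; 18 probes named several genes and 10378 were unnamed here. A gene was its brightest probe over both arrays. Of the probes, 36.2% in PirBTM and 33.4% in wild type were above background (detection p-value below 0.01). Where 1 array was dark, the fold is a bound against the higher of the dark value and the lowest value above background on that array (5.67 for PirBTM and 5.95 for wild type, log2). With 1 array per group there is no test, and the number of arrays limits the precision. Both arrays were positions of 1 BeadChip by their names, so position and genotype cannot be told apart.

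The members and lists were chosen with earlier results of these data known. The text names all 5 members with every probe, Tle5, from each pathway list up to the 2 highest and 2 lowest, neighbours past 2-fold, and the 3 genes nearest to a member past 2-fold by Euclidean distance of the pair of log2 values. Other names were chosen after their values were seen. Alternatives were no background correction, an offset of 50, cyclic loess, median scaling, the authors' deposited values, the mean of probes, detection limits of 0.05 and 0.001, and thresholds of 1.5-fold and 3-fold. The array files name no build, so probe positions are left out. The annotation used here names no Pirb probe, and the targeted gene could not be used to check the labels.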

Additional observations from a re-analysis of the deposited data

How the results depend on the processing

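A value counted as moved when it shifted by more than the measuring SD of 0.30 or, for a count or share, by more than 1.5 times. Of 247 values under alternatives, 199 did not move, 48 moved and 0 changed sign after passing 2-fold. The log2 ratio of Tle6 moved to -2.63 without background correction, -3.21 with an offset of 50 and -2.67 in the authors' deposited values. Tle1 moved to 0.16 with cyclic loess; Tle3 to 0.59 with cyclic loess, 0.60 with median scaling and 0.64 with the mean of probes; Tle4 to 0.056 with the mean of probes. The counts of members past the fold threshold were 1 lower and 0 higher under all 10 alternatives, which include thresholds of 1.5-fold and 3-fold. Tle2 was above background on both arrays only at a limit of 0.05, with a log2 ratio of -0.73.

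The share of genes at least 2-fold lower (9.86%) was 4.24% without background correction, 5.13% with cyclic loess and 4.53% in the deposited values. It was 27.2% at 1.5-fold and 2.39% at 3-fold, where the share higher was 16.2% and 5.43%. Among 2-fold differences, those higher in PirBTM made up 49.8%, against 62.8% without background correction, 71.9% with cyclic loess, 62.6% with median scaling and 61.6% in the deposited values.

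Without background correction the medians of the lists were 0.45 for recruiting factors, -3.05 for MLL-AF9 genes, 2.96 for erythroid, 2.55 for B cell, 1.42 for T and NK cell, 3.21 for macrophage, 0.87 for megakaryocyte and 1.67 for stromal genes. With an offset of 50 they were -3.65 for MLL-AF9 genes, 3.97 for erythroid, 3.58 for B cell, 2.21 for T and NK cell, 4.01 for macrophage, 1.36 for megakaryocyte and 2.50 for stromal genes. In the deposited values they were 0.42 for recruiting factors, -3.10 for MLL-AF9 genes, 2.96 for erythroid, 2.49 for B cell, 1.36 for T and NK cell, 3.24 for macrophage, 0.83 for megakaryocyte and 1.61 for stromal genes. The stromal median was 2.58 with the mean of probes and 5.06 at a limit of 0.001, and that of recruiting factors 0.45 at a limit of 0.05. Pathway genes at least 2-fold higher, 8 as reported, were 5 without background correction and 5 in the deposited values, and 12 with cyclic loess and 12 with median scaling. Neighbours at least 2-fold lower were 0 without background correction, with an offset of 50, with median scaling, in the deposited values and at a limit of 0.001, against 1. The cause of these shifts was not tested. No paired analysis was possible because each group had 1 array. Tle1, Tle2 and Tle3, and Tle6 in PirBTM, lay near background, which limits their ratios.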

Other observations

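Of the enzymes known to modify Groucho proteins, 4 were above background (5 with a named probe of 9 listed). By brightest probe, 0 were at least 2-fold higher or lower in PirBTM, beside 12.8% and 9.67% of all genes above background on an array. Hipk2, a kinase that in flies weakens repression by Groucho, had log2 ratios of 0.74 by its brightest probe and -0.48 and -0.23 by its other probes detected on both arrays, so no direction can be given. Cdk1, the mitotic kinase, had 11.49 in PirBTM and 12.28 in wild type, a log2 ratio of -0.79. The casein kinase 2 subunit genes Csnk2a1 and Csnk2a2 had log2 ratios of -0.25 and 0.11, less than the measuring SD of a single probe.

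The partners of Tle6 in the subcortical maternal complex of the egg were dark or nearly so in these marrow samples. Of 6 genes, Nlrp5, Ooep, Padi6, Nlrp4f and Zbed3 were above background on neither array. Khdc3 was just above it, at 6.06 in PirBTM and 6.32 in wild type, with a log2 ratio of -0.26. The bright Tle6 signal on the wild-type array was thus measured where 1 of 6 of these partners was detected.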
